A study of Arabidopsis thaliana with 16 samples.

Results

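The SnRK2 genes encode SNF1-related protein kinases of group 2, a plant family of serine/threonine kinases, and Arabidopsis thaliana has 10 of them, SnRK2.1 to SnRK2.10. They were taken from the deposited count table by their gene IDs, a rule that uses no measured value, and they are 10 of the 27655 genes counted. Of these 10, 8 had enough counts to be tested, among 17083 tested genes, and SnRK2.7 and SnRK2.9 were too low. The libraries came from whole germinating seeds of the wild-type strain Col-0, with 4 biological replicates in each of 4 groups. Per the labels, seeds were kept for 3 days at 4 °C, grown at 22 °C in constant light on diluted Murashige and Skoog medium, and at 24 hours after imbibition moved to that medium in liquid form for 6 hours. The first group received 60 mM glucose together with 5 µM abscisic acid (ABA), the second 5 µM ABA, the third 60 mM glucose, and the control group has no added compound in its labels. All groups were harvested at 30 hours after imbibition, and the labels name no osmotic control for glucose.

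In the core ABA pathway, the hormone binds soluble receptors of the PYR/PYL family, the receptors then bind and inhibit the clade A protein phosphatases 2C (PP2Cs), and the SnRK2 kinases that these phosphatases held inactive become active. Active kinases phosphorylate transcription factors of the group A bZIP family, which act on ABA-responsive genes, as well as ion channels and other proteins. The family has 3 subclasses. Subclass III, which holds SnRK2.2, SnRK2.3 and SnRK2.6, is the most strongly activated by ABA and is needed for ABA to hold back germination. Subclass II, SnRK2.7 and SnRK2.8, is activated weakly by ABA. Subclass I holds 5 kinases (SnRK2.1, SnRK2.4, SnRK2.5, SnRK2.9 and SnRK2.10), most of which are activated by osmotic and salt stress and hardly by ABA. Activation is a change of phosphorylation in the protein, and the libraries measure transcript levels only.

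Library totals ran from 9360552 to 17794702 counts, and a listed count of 0 allows a level of up to 3 counts. That was 0.169 to 0.32 CPM (counts scaled to library size) on the unscaled totals, whereas the CPM of genes use TMM-scaled library sizes. Replicates of a group correlated across genes at r of 0.9795 to 0.9931, and the biological coefficient of variation was 7.88%. ABA replicate 3 stood apart from the other ABA libraries on the second principal component of log2 CPM, with a score of 27.2, and on the next one, with -33.3. Without that library, 4 SnRK2 genes in place of 3 were called in ABA against control, and 6462 in place of 5824 of all 17083 tested genes. The changes of the called SnRK2 genes are given below with and without it. Marker genes of seed storage proteins and oil bodies were present in all libraries, at summed CPM of 1837.8 to 1938.9 with ABA plus glucose, 2373.4 to 2604.8 with ABA, 188.4 to 218.6 with glucose and 171.0 to 225.7 in control. The sums of EPR1 and MAN7, markers of the endosperm, were 265.1 to 421.7, 321.2 to 781.0, 272.9 to 357.1 and 178.7 to 292.7 CPM in the same order of groups. The storage sums were thus higher in every library with ABA than in every library without it. CRA1, CRC, OLE1 and OLE2 were called higher with ABA against control, and CRU2 was not (log2 fold change -0.08, adjusted p = 0.737, edgeR's quasi-likelihood test). With glucose against control CRA1 was called higher (0.45), and CRC (-0.76), OLE1 (-0.75) and OLE2 (-0.44) were called lower, which the sums do not show. The endosperm sums were higher in every ABA library than in every control library. Of the 2 endosperm genes MAN7 was called higher with ABA (log2 fold change 1.54, adjusted p = 2.02e-13 in edgeR's quasi-likelihood test), and EPR1 was not (0.67, adjusted p = 0.0638), with medians of 217.6 CPM with ABA and 212.1 in control and 1 ABA library at 653.3. The part of either in the SnRK2 values below was not tested. In whole seeds, fewer cells of a type and less RNA per cell cannot be told apart.

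In every group SnRK2.2 had the highest level of the 10 genes. Levels between genes are compared on the deposited per-length signal, which the file heading calls TPM. SnRK2.2 averaged 106.2 with ABA plus glucose, 108.1 with ABA, 106.9 with glucose and 97.6 in control, and over the 16 libraries its mean lay above 90.8% of the tested genes. SnRK2.3, SnRK2.10, SnRK2.8, SnRK2.1 and SnRK2.6 formed a middle range with means of 42.6 to 65.0 over the 16 libraries. SnRK2.4 followed at 25.6 and SnRK2.5 at 9.52, which lay above 38.3% of the tested genes only. SnRK2.7 and SnRK2.9 averaged 0.392 and 0.15.

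The order within the middle range depended on the treatment. When both compounds were given, SnRK2.3 and SnRK2.10 averaged 61.4 and 61.3 and their ranges over replicates overlapped, and SnRK2.8, SnRK2.1 and SnRK2.6 followed at 49.7, 46.9 and 41.8, each apart from its neighbour. With ABA SnRK2.10 stood second at 72.4, and its range overlapped that of SnRK2.3 at 64.6. SnRK2.1, SnRK2.8 and SnRK2.6 then lay at 48.8, 45.5 and 41.4, and neighbours in that order overlapped. The ranges of neighbours also overlapped all the way from SnRK2.3 to SnRK2.1 with glucose, where SnRK2.3 averaged 62.5, SnRK2.8 54.6, SnRK2.10 49.1, SnRK2.6 48.7 and SnRK2.1 48.4. In control SnRK2.3 averaged 71.6, SnRK2.8 57.7, SnRK2.10 54.6, SnRK2.1 47.3 and SnRK2.6 38.5, and only SnRK2.8 and SnRK2.10 overlapped.

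The summed signal of the family differed little between groups. It was 402.6 ± 7.5 with ABA plus glucose, 418.5 ± 13.0 with ABA, 404.4 ± 12.0 with glucose and 402.8 ± 10 in control (mean ± SD, n = 4, here and for all group means). Subclass III held 52.0 ± 0.46% of it with ABA plus glucose, 51.2 ± 1.1% with ABA, 53.9 ± 1.3% with glucose and 51.5 ± 1.7% in control. The share of subclass II was 12.4 ± 0.31%, 10.9 ± 0.55%, 13.6 ± 1.1% and 14.5 ± 0.43% in the same order of groups, and that of subclass I was 35.6 ± 0.45%, 37.9 ± 1.2%, 32.5 ± 0.67% and 33.9 ± 1.3%. The share of subclass III varied by a few percentage points, and every ABA library had a smaller share for subclass II and a larger one for subclass I than every control library.

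**Figure D1:**
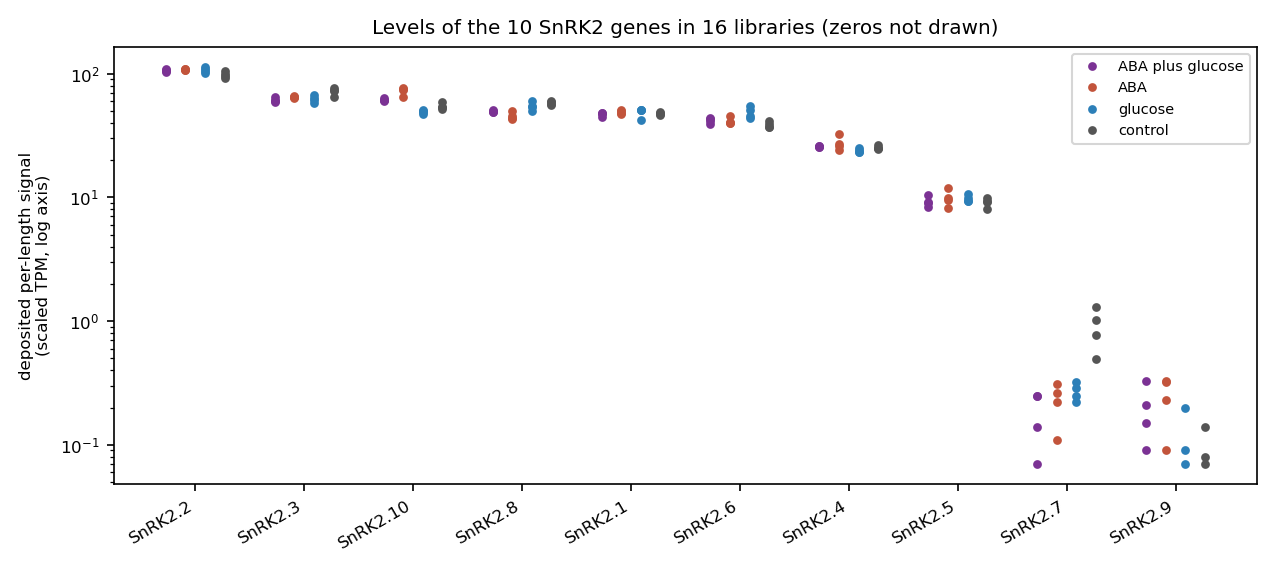
Deposited per-length signal of the 10 SnRK2 genes on a log axis, 1 point per library, coloured by group, with genes in the order of their mean and zeros not drawn. SnRK2.2 lies highest, at group means of 97.6 to 108.1, and SnRK2.7 and SnRK2.9 lie below the other 8 genes in every group.

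Related members share stretches of coding sequence, and reads that fall inside such a stretch cannot be told apart by their letters. The longest stretches shared between members are shown because they limit how counts can be divided within each pair. Both are copied from the RefSeq annotation of build TAIR10.1 along the spliced transcript. The letters are the same in both genes of a pair, and none are capitalised. The stretch of SnRK2.2 at chr3:18743122-18743242 on the minus strand, which spans an intron, has 45 bases and is also in SnRK2.3. The stretch of SnRK2.4 at chr1:3656724-3656930 on the minus strand has 59 bases, also spans an intron, and is also in SnRK2.10.
SnRK2.2 and SnRK2.3: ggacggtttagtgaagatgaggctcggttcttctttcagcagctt
SnRK2.4 and SnRK2.10: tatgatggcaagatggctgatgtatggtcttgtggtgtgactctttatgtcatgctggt
These stretches are short beside the transcripts. Of all runs of 31 bases in the annotated transcripts, SnRK2.2 shared 1.15%, SnRK2.3 1.25%, SnRK2.4 1.6% and SnRK2.10 1.78% with any other gene, and SnRK2.6, SnRK2.7 and SnRK2.9 shared none. Neighbouring genes overlapped 2 members further. SnRK2.5 shared 22.8% of its runs, most of them with AT5G63640, an ENTH/VHS/GAT family protein on the opposite strand that overlaps its end over 382 bases, and its estimated counts had decimals in all 16 libraries. SnRK2.8 shared 7.44%, with AT1G78280 on the opposite strand, which overlaps it over 169 bases, and its counts had decimals in 11 libraries. The use of strand in counting is not given in the sources used here, so the values of SnRK2.5 and SnRK2.8 are uncertain to the extent of those overlaps. AT5G63640 averaged 51.5 ± 1.8 CPM with ABA plus glucose, 52.7 ± 2.7 with ABA, 47.2 ± 2.2 with glucose and 42.9 ± 3.9 in control, and AT1G78280 averaged 33.5 ± 1.4, 33.6 ± 1.3, 34.6 ± 2.7 and 32.5 ± 4.1. The other overlaps were SnRK2.1 with AT5G08580 over 6 bases, SnRK2.4 with RECQ4A over 13 bases, and SnRK2.3 with AT5G66890 over 28 bases and with the opposite-strand non-coding RNA AT5G09785 over 383 bases. AT5G66890 was listed at 0 in all libraries.

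The ABA and control libraries address which transcripts responded to the hormone. In edgeR's quasi-likelihood test, 3 of the 8 tested SnRK2 genes were called with ABA against control at an adjusted p under 0.05, that is 37.5%, and 34.1% of all tested genes were called. SnRK2.10 rose and SnRK2.8 and SnRK2.3 fell, and over all genes 16.1% were called higher and 18% lower. The median log2 fold change of the 8 was 0.09 against 0 over all genes, and their median absolute log2 fold change was 0.11 against 0.19. For ABA plus glucose against control 3 of 8 members, or 37.5%, were called, 1 higher and 2 lower, where 25.3% of all genes were called, 11.2% higher and 14.1% lower. The members' median absolute log2 fold change was 0.12 against 0.16. With glucose against control 2 of 8, or 25%, were called, 1 higher and 1 lower, where 11.3% of all genes were, 3.85% higher and 7.49% lower. The members had a median absolute log2 fold change of 0.11 against 0.13. The 3 comparisons share the 4 control libraries. Without 1 library some of these counts changed by over 1.5 times. The 3 members called with ABA plus glucose were 1 without replicate 1 of that group. The 2 called with glucose were 1 without control replicate 3, glucose replicate 2 or glucose replicate 3, and the 1937 genes called overall with glucose were 1287, 1149 and 1287 without glucose replicates 2, 3 and 4. With 8 tested members, 1 gene moves such a share by 12.5 percentage points.

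Subclass III contains the kinases that act in ABA signalling of the seed. SnRK2.2 (AT3G50500, chr3:18741444-18744174, minus strand, build TAIR10.1), which acts with SnRK2.3 in germination and root responses to ABA, had 142.1, 139.0, 136.5 and 133.8 CPM with ABA plus glucose. It had 140.3, 141.4, 133.6 and 137.1 CPM with ABA, 130.5, 133.7, 146.6 and 138.5 CPM with glucose, and 118.7, 128.4, 135.6 and 122.2 CPM in control. Most treated libraries lay above most control libraries, and each treated group overlapped control. The log2 fold changes against control were 0.13 with ABA plus glucose, 0.13 with ABA and 0.12 with glucose, with a standard error of 0.057 each, and none was called (adjusted p = 0.109, 0.0814 and 0.177 in edgeR's quasi-likelihood test). The ABA value was called by DESeq2 (0.14, adjusted p = 0.0368), by limma on the deposited signal (0.15, adjusted p = 0.0302), and in edgeR without control replicate 3 (0.17, adjusted p = 0.0401) or ABA replicate 3 (0.16, adjusted p = 0.025).

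SnRK2.3 (AT5G66880, chr5:26710302-26712971, plus strand) was lower in all treated groups. It had 69.8, 76.9, 72.8 and 73.0 CPM with ABA plus glucose, 75.1, 73.8, 78.2 and 74.9 CPM with ABA, and 74.6, 71.3, 69.8 and 78.1 CPM with glucose, against 79.7, 83.9, 92.5 and 86.0 CPM in control. In CPM every treated library lay below every control library, and the treated groups overlapped each other. On the deposited signal the highest libraries with ABA (65.7) and with glucose (66.7) lay above the lowest control library (64.9). The fold was 0.855 with ABA plus glucose (95% interval 0.786 to 0.931), 0.882 with ABA (0.81 to 0.961) and 0.858 with glucose (0.788 to 0.935). The adjusted p was 0.00661, 0.0214 and 0.0183 in edgeR's quasi-likelihood test for the same groups. The fall with ABA plus glucose was called under every alternative run, with adjusted p of 0.00217 to 0.0368. The ABA value was not called without a filter on low counts (-0.17, adjusted p = 0.0566), by limma on the deposited signal (-0.15, adjusted p = 0.0576), with only the compared groups in the fit (-0.17, adjusted p = 0.0971), or without control replicate 3 (-0.14, adjusted p = 0.0946), ABA replicate 2 (-0.15, adjusted p = 0.0769) or ABA replicate 4 (-0.17, adjusted p = 0.0639). Without ABA replicate 3 it was -0.18 (adjusted p = 0.0181). The glucose value was not called without control replicate 3 (-0.18, adjusted p = 0.0768), glucose replicate 2 (-0.2, adjusted p = 0.0766) or glucose replicate 3 (-0.2, adjusted p = 0.0765).

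SnRK2.2 and SnRK2.3 therefore stood further apart in treated seeds. The ratio of their per-length signals was 1.73 ± 0.071 with ABA plus glucose, 1.67 ± 0.041 with ABA and 1.72 ± 0.17 with glucose, against 1.36 ± 0.041 in control. The lowest ratio in a treated library was 1.58 and the highest in a control library was 1.41, so that the ranges did not overlap. The shift was not particular to this pair. The ratio of SnRK2.6 to SnRK2.3 was 0.681 ± 0.031, 0.641 ± 0.035 and 0.781 ± 0.088 in the same order of groups, against 0.538 ± 0.041 in control. That of SnRK2.2 to SnRK2.6 was 2.54 ± 0.066, 2.62 ± 0.18 and 2.21 ± 0.16, against 2.54 ± 0.13 in control.

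SnRK2.6 (AT4G33950, also OST1, chr4:16271745-16274825, plus strand), best known as the kinase that closes stomata in response to ABA, rose with glucose. It had 62.5, 64.0, 73.0 and 77.7 CPM with glucose, against 55.3, 53.0, 58.8 and 52.3 CPM in control. All glucose libraries lay above all control libraries, and glucose replicates 3 and 4 were the highest. The fold was 1.26 (95% interval 1.14 to 1.4), with a log2 fold change of 0.33, a standard error of 0.072 and an adjusted p of 0.00352 in edgeR's quasi-likelihood test. It was called under every alternative run, at log2 fold changes of 0.29 to 0.38. With ABA present no such rise was called. SnRK2.6 had 61.0, 61.9, 59.9 and 56.2 CPM with ABA plus glucose, against 57.6, 56.3, 63.8 and 56.9 CPM with ABA, and these groups overlapped (log2 fold change 0.03, adjusted p = 0.906). The difference between both glucose effects, the interaction, was -0.31 on the log2 scale with a standard error of 0.1 and was not called (unadjusted p = 0.00617, adjusted p = 0.0827, edgeR). It was called in edgeR without glucose replicate 1 (-0.35, adjusted p = 0.045). All libraries with ABA plus glucose lay below all with glucose, at a log2 fold change of -0.21 (adjusted p = 0.0544), which was called by DESeq2 (-0.22, adjusted p = 0.0401), with only the compared groups in the fit (-0.21, adjusted p = 0.0226), and without glucose replicate 1 (-0.26, adjusted p = 0.0254) or 2 (-0.25, adjusted p = 0.0439).

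The stomatal context of SnRK2.6 was checked against guard-cell genes. SPCH, MUTE and FAMA, transcription factors of the stomatal lineage, were detected, and MYB60 and HT1, a transcription factor and a kinase of mature guard cells, were listed at 0 in all 16 libraries. The sum of the 5 genes was 12.7 to 17.2 CPM with ABA plus glucose, 13.1 to 22.1 with ABA, 15.6 to 19.3 with glucose and 16.4 to 21.7 in control. The ranges with glucose and in control overlapped, and none of the 3 tested genes was called with glucose. SPCH was called lower with ABA against control (log2 fold change -0.42, adjusted p = 0.0429, edgeR).

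Subclass II was represented by SnRK2.8, since SnRK2.7 was near the limit of detection. SnRK2.8 (AT1G78290, chr1:29457205-29459493, minus strand), a kinase linked to growth and drought responses, was lower with ABA. It had 61.6, 63.0, 63.3 and 64.3 CPM with ABA plus glucose, 61.5, 56.8, 54.9 and 53.9 CPM with ABA, and 75.8, 67.3, 62.7 and 69.5 CPM with glucose, against 75.1, 69.6, 74.2 and 72.6 CPM in control. Every library that received ABA lay below every control library, whereas glucose libraries overlapped control. The fold was 0.78 with ABA (95% interval 0.712 to 0.855, adjusted p = 0.000113) and 0.865 with ABA plus glucose (0.79 to 0.947, adjusted p = 0.0166) in edgeR's quasi-likelihood test. The ABA value was called under every alternative run, and was -0.33 on the log2 scale without ABA replicate 3 (adjusted p = 0.000209). The value with ABA plus glucose was not called without replicate 1 of that group (-0.19, adjusted p = 0.0549). In CPM all libraries with ABA plus glucose lay above all with ABA, but at the closest by 61.6 against 61.5. On the deposited signal these groups overlapped, with a lowest value of 48.9 with ABA plus glucose and a highest of 49.4 with ABA. The log2 fold change of 0.15 was not called (unadjusted p = 0.0285, adjusted p = 0.249, edgeR). The interaction was 0.23 with a standard error of 0.089 and was not called (adjusted p = 0.142, edgeR).

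SnRK2.7 (AT4G40010, chr4:18548444-18551183, minus strand) had few reads in every library. It had 3, 1, 2 and 4 counts with ABA plus glucose, 2, 3, 3 and 3 with ABA, and 4, 3, 3 and 3 with glucose, against 11, 13, 7 and 13 in control. Every treated library lay below every control library, although the highest library here reached 1.37 CPM only. Summed over a group and divided by the summed library totals, without TMM scaling, the rate relative to control was 0.208 with ABA plus glucose (95% exact interval 0.0935 to 0.42). It was 0.237 with ABA (0.11 to 0.467) and 0.315 with glucose (0.156 to 0.596). These intervals cover counting error only. In a fit of all 22613 genes with a count above 0 in at least 1 library, the log2 fold changes were -2.2, -2 and -1.66, with adjusted p of 0.000695, 0.00124 and 0.0164 in edgeR's quasi-likelihood test. SnRK2.7 shares no run of 31 bases with another gene.

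Subclass I included the member with the largest change among those tested. SnRK2.10 (AT1G60940, chr1:22439063-22442221, minus strand), an osmotic stress kinase, had 77.1, 76.2, 79.9 and 74.8 CPM with ABA plus glucose, 93.9, 83.7, 91.0 and 95.7 CPM with ABA, and 60.8, 59.0, 63.7 and 62.2 CPM with glucose, against 73.3, 67.6, 68.0 and 65.1 CPM in control. The 4 groups did not overlap, and they lay in the order ABA, ABA plus glucose, control and glucose. With ABA the fold was 1.33 (95% interval 1.22 to 1.45), with a log2 fold change of 0.41, a standard error of 0.058 and an adjusted p of 7.2e-06 in edgeR's quasi-likelihood test. It was called under every alternative run, at log2 fold changes of 0.39 to 0.46, and was 0.43 without ABA replicate 3 (adjusted p = 1.83e-06). For ABA plus glucose against control the fold was 1.12 (1.03 to 1.22, adjusted p = 0.0392). That value was not called without control replicate 2 (0.16, adjusted p = 0.0823), 3 (0.16, adjusted p = 0.0815) or 4 (0.14, adjusted p = 0.111), or without ABA plus glucose replicate 1 (0.18, adjusted p = 0.059) or 3 (0.15, adjusted p = 0.0977). With glucose against control the fold was 0.896 (0.823 to 0.976), which was not called (unadjusted p = 0.0139, adjusted p = 0.0873, edgeR).

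Adding glucose to ABA lowered SnRK2.10, and adding ABA to glucose raised it. ABA plus glucose against ABA gave a fold of 0.845 (95% interval 0.778 to 0.918, adjusted p = 0.0137, edgeR), and this was the only member called of 8, or 12.5%, where 4.4% of all genes were called, 1.16% higher and 3.24% lower. The call was lost with only the compared groups in the fit (-0.25 on the log2 scale, adjusted p = 0.0567) and without ABA replicate 1 (-0.23, adjusted p = 0.0515), and the value was -0.25 without ABA replicate 3 (adjusted p = 0.00698). ABA plus glucose against glucose gave a fold of 1.25 (1.15 to 1.36, adjusted p = 0.000352, edgeR), again the only member called, 12.5%, where 11.8% of all genes were called, 5.82% higher and 5.95% lower. That value was called under every alternative run, at log2 fold changes of 0.3 to 0.34. The interaction of SnRK2.10 was not called. None of the 8 tested members was called for the interaction in edgeR, in DESeq2 or in limma on the deposited signal, where 5.29% of all genes were called in edgeR, 3.23% higher and 2.07% lower, and 3 members had an unadjusted p under 0.05. SnRK2.10 and SnRK2.8 moved apart with ABA. Their signal ratio was 1.23 ± 0.04 with ABA plus glucose and 1.59 ± 0.13 with ABA, with 0.905 ± 0.083 with glucose and 0.947 ± 0.037 in control.

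The other subclass I genes were not called in any contrast. SnRK2.1 (AT5G08590, chr5:2783168-2786113, plus strand) averaged 59.3 ± 1.9 CPM with ABA plus glucose, 61.0 ± 2.4 with ABA, 60.7 ± 5.1 with glucose and 59.6 ± 1.6 in control. SnRK2.4 (AT1G10940, chr1:3655673-3658612, minus strand), which acts with SnRK2.10 in roots under salt stress, averaged 37.6 ± 0.68, 39.5 ± 4.5, 34.7 ± 1.3 and 36.9 ± 1.4 CPM in the same order of groups. SnRK2.5 (AT5G63650, chr5:25481334-25483799, minus strand) averaged 11.7 ± 1.1, 12.4 ± 1.9, 12.4 ± 0.79 and 11.6 ± 1.0 CPM. The 95% intervals of the fold with ABA against control were 0.936 to 1.12 for SnRK2.1, 0.963 to 1.18 for SnRK2.4 and 0.908 to 1.23 for SnRK2.5, so that a change the size of the SnRK2.10 rise lay outside all 3 intervals. SnRK2.4 and SnRK2.10 share the 59-base coding stretch printed above, and the ratio of SnRK2.10 to SnRK2.4 signal was 2.38 ± 0.038 with ABA plus glucose, 2.66 ± 0.24 with ABA, 2.06 ± 0.12 with glucose and 2.16 ± 0.059 in control. SnRK2.9 (AT2G23030, chr2:9803492-9806731, minus strand) had 1, 2, 3 and 5 counts with ABA plus glucose, 6, 1, 3 and 3 with ABA, and 0, 1, 1 and 2 with glucose, against 1, 1, 2 and 0 in control. Its rate with ABA relative to control was 3.08 with an exact 95% interval of 0.953 to 13.0, and in the fit without a filter the fold was 2.91 and was not called (unadjusted p = 0.0495, adjusted p = 0.14, edgeR).

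**Figure D2:**
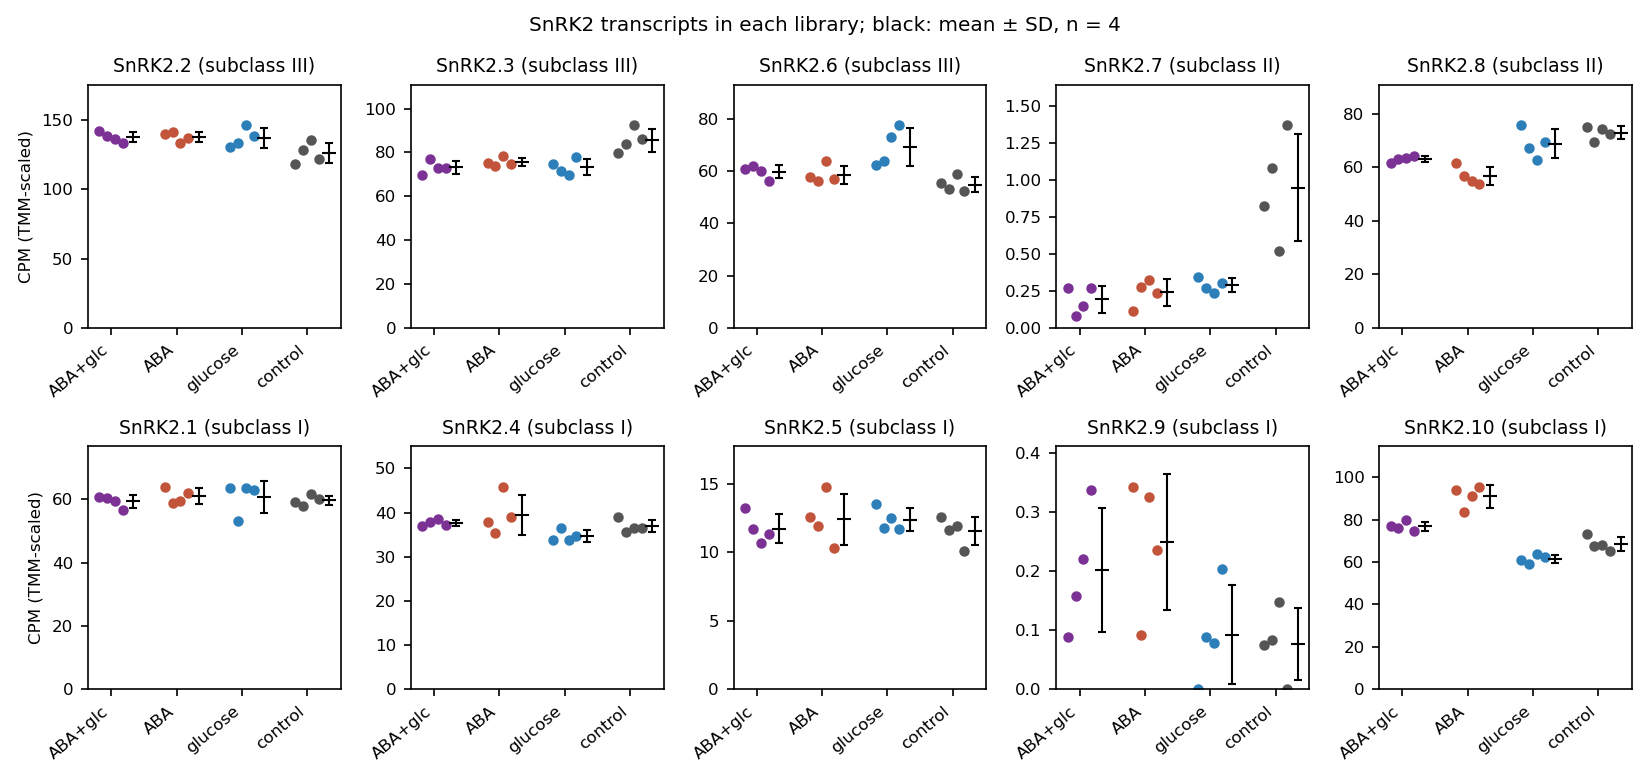
CPM of each SnRK2 gene in each library, 4 points per group, with the mean and SD in black and an axis from 0 of its own in each panel. SnRK2.10 separates all 4 groups, SnRK2.3 and SnRK2.7 are lower in all treated groups, SnRK2.8 is lower in both groups with ABA, and SnRK2.6 is highest with glucose.

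**Figure D3:**
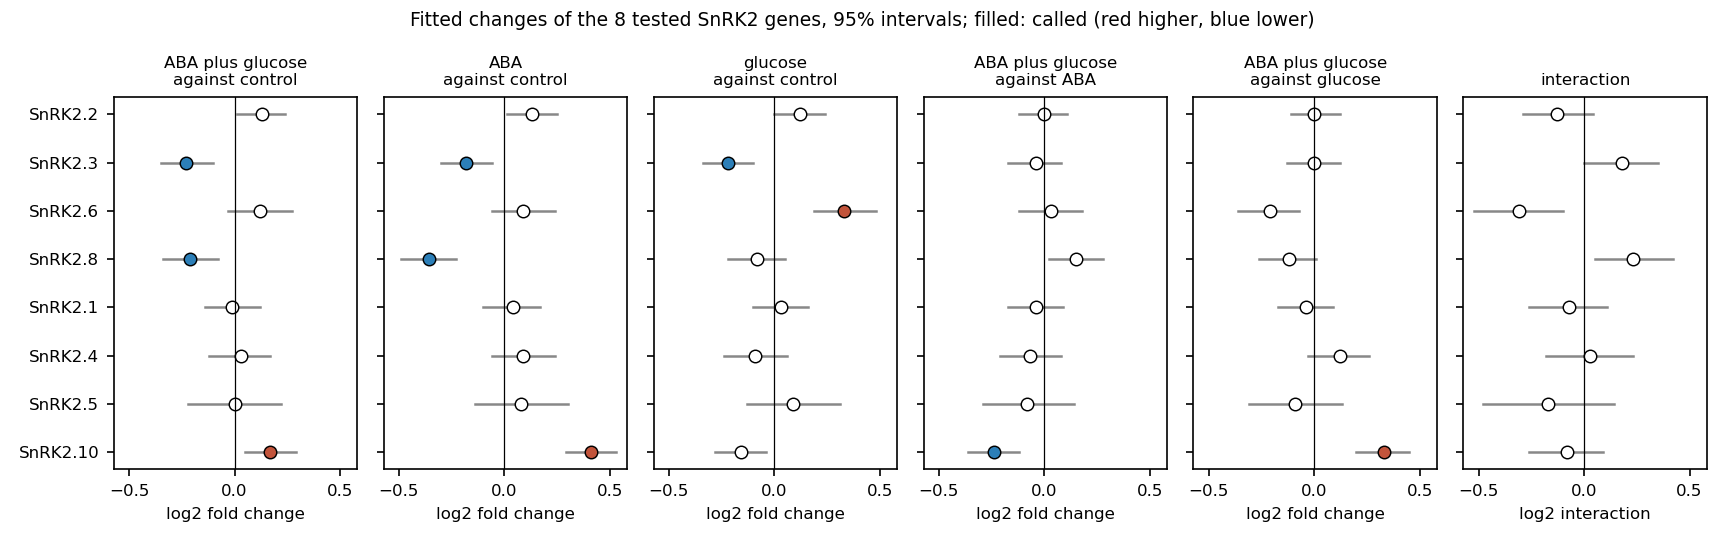
Fitted log2 fold changes of the 8 tested SnRK2 genes in 5 contrasts and the interaction, with 95% intervals, filled where called at an adjusted p under 0.05. The largest called values are the 0.41 of SnRK2.10 and the -0.36 of SnRK2.8 with ABA, and no interaction is called.

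The 250 bases before the annotated start are shown for SnRK2.3, SnRK2.7 and SnRK2.10. In CPM all treated libraries of SnRK2.3 and SnRK2.7 lay below control, and SnRK2.10 rose with ABA. The sequences were read from build TAIR10.1 of RefSeq. Capitals mark matches, on either strand, to ACGTG, the core of the ABA-responsive element that group A bZIP factors bind. Positions count back from -1, the base before the start. The SnRK2.3 window is chr5:26710052-26710301 on the plus strand, the SnRK2.7 window is chr4:18551184-18551433 on the minus strand, and the SnRK2.10 window is chr1:22442222-22442471 on the minus strand.
SnRK2.3: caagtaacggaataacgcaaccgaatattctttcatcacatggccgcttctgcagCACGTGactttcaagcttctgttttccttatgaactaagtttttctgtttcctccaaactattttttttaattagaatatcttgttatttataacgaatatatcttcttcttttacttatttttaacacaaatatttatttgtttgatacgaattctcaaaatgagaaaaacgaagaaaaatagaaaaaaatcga
SnRK2.7: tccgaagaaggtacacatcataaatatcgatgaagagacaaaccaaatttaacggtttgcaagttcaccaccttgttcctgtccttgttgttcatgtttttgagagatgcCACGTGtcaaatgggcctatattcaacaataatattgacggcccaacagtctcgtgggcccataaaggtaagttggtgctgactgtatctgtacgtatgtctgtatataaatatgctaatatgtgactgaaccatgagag
SnRK2.10: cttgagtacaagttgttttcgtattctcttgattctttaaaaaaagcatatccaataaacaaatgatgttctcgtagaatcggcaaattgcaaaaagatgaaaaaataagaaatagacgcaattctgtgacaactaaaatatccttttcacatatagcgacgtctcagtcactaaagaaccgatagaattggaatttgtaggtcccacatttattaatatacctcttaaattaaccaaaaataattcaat
The windows of SnRK2.3 and SnRK2.7 each held CACGTG, at -195 and -140. This palindrome contains ACGTG on both strands, so that 1 site counts as 2 overlapping matches of the core. CACGTG was in 6.49% of the 250-base windows of 27443 protein-coding genes (1780 of them), and ACGTG was in 22.9%. The SnRK2.7 window overlaps an exon of AT4G40011, annotated as an uncharacterized protein. The SnRK2.10 window held no ACGTG, nor did the 1000 bases before its start, whereas 54.4% of all genes had a match within 1000 bases. SnRK2.1 and SnRK2.4, which were not called with ABA, had no ACGTG within 1000 bases either. The SnRK2.10 window held TATCCA, a sugar-response motif known mainly from rice amylase promoters, at -202, as did 13.6% of the 250-base windows. Of the other members, SnRK2.9 had 1 ACGTG at -118, SnRK2.5 had TATCCA at -37, and SnRK2.1, SnRK2.2, SnRK2.4, SnRK2.6 and SnRK2.8 had none of the searched motifs within 250 bases. A match describes the letters only.

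The 8 tested SnRK2 genes spanned log2 fold changes of -0.36 to 0.41 with ABA, and the genes around them in the pathway spanned a wider range. Among the receptors, 12 of 14 PYR/PYL genes were tested, and 7 were called lower and 2 higher with ABA against control in edgeR's quasi-likelihood test, with a median log2 fold change of -0.47. Over all tested genes 16.1% were called higher and 18% lower with ABA, and the median was 0. PYL6 fell to 14.6 ± 2.1 CPM with ABA, against 46.1 ± 4.1 in control (log2 fold change -1.67, adjusted p = 2.29e-12). PYL13 averaged 5.92 ± 1.0 CPM with ABA and 1.49 ± 0.48 in control (1.99, adjusted p = 1.54e-07). With ABA plus glucose against ABA, where 1.16% of all genes were called higher and 3.24% lower, 3 receptor genes were called higher and none lower, PYL6 among them (0.47, adjusted p = 0.00584).

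The PP2Cs, which dephosphorylate subclass III kinases, went mostly the other way. Of 9 genes 8 were tested, 7 were called higher and 1 lower with ABA, where 16.1% of all genes were called higher and 18% lower, and the median log2 fold change was 1.29. HAI3 averaged 76.7 ± 6.2 CPM with ABA and 12.2 ± 2.4 in control (2.64, adjusted p = 1.31e-13, edgeR), and AHG1, a phosphatase of seeds, averaged 157.1 ± 8.7 and 30.8 ± 7.0 (2.34, adjusted p = 3.15e-14). The exception was ABI1, named here because it was the single fall, with 77.0 ± 4.2 CPM with ABA and 94.4 ± 3.4 in control (-0.3, adjusted p = 0.000534). In ABA plus glucose against ABA, 3 PP2C genes were called lower and none higher, where 3.24% of all genes were called lower, HAI3 among them (-0.71, adjusted p = 0.00023).

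Downstream of the kinases, 7 of the 8 tested group A bZIP genes were called higher with ABA and none lower, where 16.1% of all genes were called higher, with a median of 0.46. ABI5, the bZIP factor that arrests germination, averaged 252.4 ± 35.0 CPM with ABA and 54.4 ± 4.5 in control (2.21, adjusted p = 3.29e-15, edgeR), and EEL averaged 13.2 ± 0.66 and 5.35 ± 0.65 (1.31, adjusted p = 1.58e-09). ABI5 was lower with ABA plus glucose than with ABA (-0.59, adjusted p = 5.09e-05), 1 of 3 bZIP genes called lower in that contrast, where 3.24% of all genes were, with none called higher.

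Raf-like kinases of groups B2, B3 and B4, several of which phosphorylate SnRK2 proteins, were all tested. Of 19 genes 6 were called higher and 2 lower with ABA, where 16.1% of all genes were called higher and 18% lower, and the median was 0.18. AT4G23050, annotated as a PAS domain-containing kinase, averaged 161.7 ± 7.3 CPM with ABA and 57.1 ± 3.4 in control (1.5, adjusted p = 2.11e-14, edgeR). AT4G24480, annotated as a protein kinase, averaged 8.82 ± 0.79 and 3.19 ± 0.57 (1.46, adjusted p = 1.21e-08). Of 12 other substrates and partners 10 were tested, and 5 were called higher and 3 lower with ABA, against the same shares over all genes, with a median of 0.25. The list's largest differences were in genes of low counts. KAT1, a potassium channel that SnRK2.6 phosphorylates, lay between 0.0 and 0.433 CPM with ABA and between 0.897 and 2.01 in control (-2.4, adjusted p = 0.000375). HAT1, a homeodomain transcription factor, averaged 0.329 ± 0.14 and 1.06 ± 0.48 (-1.65, adjusted p = 0.00907). With ABA, alone or with glucose, KAT1 and HAT1 lay too low to pass the filter, and they were tested through the groups without ABA. The filter thus favoured low genes that are lower with ABA, and both genes are among the 3 called lower.

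With glucose against control 3.85% of all tested genes were called higher and 7.49% lower. Receptors had 5 lower and none higher (median -0.4), PP2Cs 1 higher and 1 lower (-0.14), bZIP genes 1 higher and none lower (0.09), Raf-like kinases 3 higher and none lower (0.09), and other partners 1 higher and 1 lower (0.01). For ABA plus glucose against control, where 11.2% of all genes were called higher and 14.1% lower, the receptors had 1 higher and 7 lower (-0.22), PP2Cs 7 higher and 1 lower (0.88), bZIP genes 4 higher and none lower (0.28), Raf-like kinases 7 higher and 1 lower (0.18), and other partners 2 higher and 3 lower (0.14). Over all tested genes the medians were -0.01 with glucose and 0.01 with ABA plus glucose.

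**Figure D4:**
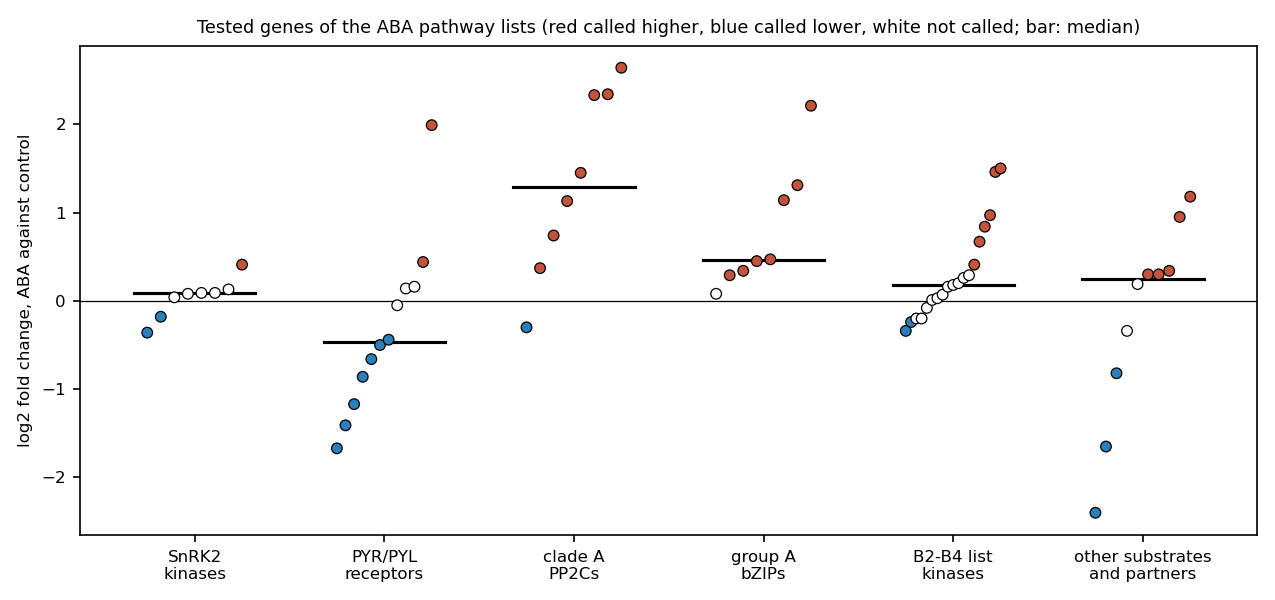
Log2 fold change of ABA against control for the tested SnRK2 genes and 5 lists of pathway genes, 1 point per gene, red where called higher, blue where called lower and white where not called, with a bar at the list's median. The SnRK2 genes lie between -0.36 and 0.41, whereas PP2Cs reach 2.64 and the PYR/PYL receptors span -1.67 to 1.99.

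For the subclass III kinases, the tested genes with the most similar profiles were found by Pearson's r of log2 CPM over the 16 libraries, as a description. For SnRK2.2, AT1G09910, annotated as a rhamnogalacturonate lyase, had r = 0.887. AT1G09910 lay between 23.6 and 25.6 CPM with ABA plus glucose, 22.3 and 26.9 with ABA, and 22.5 and 24.8 with glucose, against 14.5 to 20.9 CPM in control. SnRK2.3 was closest to AT3G47800, annotated as an aldose 1-epimerase (r = 0.914), and NAI1, a transcription factor needed for endoplasmic reticulum bodies (r = 0.901). NAI1 averaged 23.4 ± 0.95, 25.5 ± 2.7 and 25.5 ± 1.3 CPM in the treated groups, against 46.8 ± 3.2 in control. SnRK2.6 was closest to the katanin gene AT1G80350 (r = 0.865) and FAB2, a stearoyl-acyl carrier protein desaturase (r = 0.864). FAB2 averaged 125.3 ± 4.2 CPM with ABA plus glucose, 119.9 ± 3.0 with ABA and 163.7 ± 12.0 with glucose, against 110.0 ± 2.2 in control. These genes were picked from 17083 for their likeness, and the 16 libraries share their group differences and their total counts.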

How the data were processed

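RNA sequencing libraries were made from total RNA of whole seeds and sequenced in paired ends, per the labels' protocols. Trimmomatic 0.38, kallisto 0.44.0 and sleuth are named in the submitters' processing notes. Which build and annotation were used, and whether counting used strand, is not given in the sources used here. The deposited table gives estimated counts per gene, with decimals in 4057 of 27655 genes. The authors also deposited a per-length signal headed TPM, whose sums of 945626 to 1037286 per library show a further scaling that the headers do not state. The 16 remaining columns are of other samples and stayed unused.

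Estimated counts were rounded to whole numbers and tested in edgeR 4.0.16 (R 4.3.3, quasi-likelihood F-test), with TMM normalization, filterByExpr with a minimum count of 10, which left 17083 genes, and 1 fit of 4 group means to 16 libraries. Benjamini-Hochberg adjustment ran over all tested genes, and a gene was called at an adjusted p under 0.05. Standard errors were obtained by dividing the size of the log2 fold change by the root of F, and intervals cover 95%. CPM used TMM-scaled library sizes, except for the floor of a count of 0, which used the library totals. The interaction subtracts glucose minus control from ABA plus glucose minus ABA. The procedure was also run on simulated counts with known folds of 2 and 4 in either direction, built from estimates of the main fit. These are larger than any change of the 8 tested SnRK2 genes, so the run does not show how changes of their size are recovered.

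Replicates were compared, and chi-square per gene was at least 1.79 for every pair, so each library counted once. The labels give no batch. Alternatives were DESeq2-type size factors, no or a stricter filter, DESeq2 1.42.0, limma 3.58.1 on log2 of the deposited signal plus 0.5, the replicate number as a block, only the compared groups in the fit, and leaving out each replicate. The family and the pathway and marker lists were chosen with earlier results of these data known. The members were then taken as the whole family by gene ID. Symbols of 58 of the 75 listed genes are in the annotation, and all 75 IDs are. Named besides the members were, per list, the 2 called genes with the largest absolute log2 fold change with ABA, the 2 genes nearest to each subclass III member, and genes overlapping a member. A gene that this rule names is not reported here. Coordinates and sequences come from RefSeq, build TAIR10.1. Shared stretches were sought as runs of 31 bases between annotated transcripts, and motifs on both strands. The exact intervals of SnRK2.7 and SnRK2.9 and the floors cover counting error only. Intervals from the fits also include the spread between replicates.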

Additional observations from a re-analysis of the deposited data

Results flagged for a closer look

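SnRK2.1 had 53.1 CPM in glucose replicate 2, against 62.9 to 63.6 CPM in the other 3 glucose libraries. The gap to its nearest neighbour exceeded Dixon's 95% critical value for 4 samples. It was the only such case among 40 sets of 4 libraries (10 genes in 4 groups), and chance gives about 1 in 20 groups. The library lies below the control range of 57.9 to 61.5 CPM, while the other 3 lie above it.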

How the results depend on the processing

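Of 776 values of single SnRK2 genes under the alternatives, 728 kept their direction and their side of the threshold, 17 lost a call, 9 gained one and 22 changed sign before rounding. The sign changes concern 7 values near 0, none of them called. When 1 replicate was left out, these ran as follows on the log2 scale. Against control, with ABA plus glucose, SnRK2.1 (-0.01) ran from -0.02 to 0.02 and SnRK2.5 (0.0) from -0.05 to 0.05. Against ABA, SnRK2.2 with ABA plus glucose (0.0) ran from -0.03 to 0.0 and SnRK2.4 (-0.07) from -0.12 to 0.0. Against glucose, SnRK2.2 with ABA plus glucose (0.0) ran from -0.02 to 0.04 and SnRK2.3 (0.0) from -0.03 to 0.03. The interaction of SnRK2.4 (0.03) ran from -0.04 to 0.08. Sign changes under other settings were 0.0 for SnRK2.1 and for SnRK2.3 without a filter on low counts, 0.0 for SnRK2.5 with only the compared groups in the fit, and -0.01 for SnRK2.2 against glucose by limma on the deposited signal, the other 3 in the contrast named above. The count of called members with ABA plus glucose against ABA, 1, was 0 with only the compared groups in the fit, which holds fewer samples. For ABA plus glucose against glucose the count of 1 was 2 in DESeq2 and with only the compared groups in the fit, where SnRK2.6 was added, and the cause was not tested. When 1 replicate was left out, the count of called members ran from 1 to 3 with ABA plus glucose against control. It ran from 2 to 4 with ABA against control and 1 to 2 with glucose against control. It ran from 0 to 1 with ABA plus glucose against ABA, 1 to 2 with ABA plus glucose against glucose and 0 to 1 for the interaction. In the main fit 25.3%, 34.1%, 11.3%, 4.4%, 11.8% and 5.29% of all tested genes were called, in the same order of contrasts. None of the 60 recomputed subclass shares moved by more than 1 SD. Leaving 1 of 4 replicates out cannot move a mean that far, since the SD came from the same 4 values. Only the shares recomputed from estimated counts, not per length, could have moved so far.

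Over all genes, the 1937 called with glucose against control were 1287, 1149 and 1287 without glucose replicates 2, 3 and 4. The 904 called for the interaction were 597 and 581 without glucose replicates 3 and 4, 550 without ABA plus glucose replicate 3, and 1424 without ABA replicate 3. Leaving out ABA replicate 3 also took the 5824 called with ABA against control to 6462. The 751 called with ABA plus glucose against ABA were then 876.

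Groups share replicate numbers 1 to 4. Same-numbered libraries of different groups did not deviate together, with correlations of -0.155 to 0.113 over 24 pairs, and in 9 of 24 comparisons a library correlated best with its own number. With the replicate number as a block, the counts of called members were 3 with ABA plus glucose against control, 3 with ABA against control, 2 with glucose against control, 1 with ABA plus glucose against ABA, 1 with ABA plus glucose against glucose and 0 for the interaction, and all 48 member values kept their call. Depth limits SnRK2.7 and SnRK2.9, with at most 13 and 6 counts in a library.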
